A study of Homo sapiens with 3 samples.

Results

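Apoptosis regulators are described here in T47D, a human line of luminal breast cancer cells with estrogen receptor, after knockdown of the long noncoding RNA ERINA. They are 32 genes picked by symbol from the 58039 genes of the deposited expression table, and each symbol matched a single row. Knockdown cells carried 1 of 2 short hairpin RNAs against ERINA, named shRNA1 and shRNA2, and the control cells carried a control hairpin per their description label, although their shRNA label reads None. All 3 lines were made with lentivirus and puromycin selection per the labels, so all share the infection and the drug. Each line gave 1 library, and the shRNA1 and shRNA2 libraries form the knockdown group (n = 2) against a control group of n = 1. Nothing in the labels says whether a line is a clone or a pool.

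Cells die by apoptosis along a pair of routes. In the mitochondrial route, BH3-only proteins sense damage or stress and either neutralise the BCL2-type guards or switch on the effectors BAX and BAK1, which open the outer mitochondrial membrane. Released cytochrome c then assembles APAF1 and caspase-9 into the apoptosome. In the receptor route, FAS and the TRAIL receptors recruit FADD and caspase-8, and both routes end in executioner caspases that IAP proteins can restrain.

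The unit is FPKM, fragments scaled by transcript length and library size, which allows levels of different genes to be set side by side. ERINA, listed under its synonym LINC00992, was at 5.21 FPKM with shRNA1 and 8.91 FPKM with shRNA2, against 63.4 FPKM in the control, and both deposited intervals lay clear of the control interval (log2 difference -3.12, SE 0.33, limma adjusted p of 0.0816). Of the 10 luminal epithelial markers examined, 10 were at 1 FPKM or more in every library. Of 12 markers of blood, endothelial, fibroblast and basal cells, 10 were under 1 FPKM in every library, and the basal marker TP63 was at 1.36 FPKM with shRNA1, 1.63 FPKM with shRNA2 and 1.53 FPKM in the control. The 12 summed to 3.38 FPKM with shRNA1, 4.37 FPKM with shRNA2 and 5.35 FPKM in the control, with CD3E and COL3A1 at 0 in each, and the part of this in the results was not tested. The estimated depth was 33000000 fragments with shRNA1, 33200000 with shRNA2 and 31800000 in the control. Differences were computed on log2(FPKM + 0.5), a scale that understates the change of low genes.

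Of the 32 regulators, 28 reached a mean of 1 FPKM over the 3 libraries and were tested. Limma over all 13112 tested genes called 0 of the 28 at a Benjamini-Hochberg adjusted p under 0.05, where 0.351% of all genes were called. At an unadjusted p under 0.05 limma listed 6 of the 28, BAK1, BBC3, TNFRSF10B, APAF1, CASP2 and BIRC2, against 29.7% of all genes. When limma was run on the 11546 protein-coding genes alone, 4 of the 28 passed as lower in knockdown, BAK1, TNFRSF10B, BIRC2 and APAF1, against a background of 11.3% called lower. In the same fit 0 passed as higher, with a background of 7.11%, and 18.4% of coding genes were called in either direction. The count of lower calls is thus close to the share among coding genes at large, and the regulators were not set apart by it.

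By size alone, 6 of the 28 were at least 1.5-fold lower with shRNA1 than in the control (12.7% of all tested genes), namely BAK1, TNFRSF10B, CASP2, APAF1, CASP9 and BIRC2. With shRNA2 there were 3, BAK1, TNFRSF10B and CASP2 (8.94% of all tested genes). None was at least 1.5-fold higher with shRNA1 (0 of 28, background 9.48%) or with shRNA2 (0 of 28, background 7.25%). The shRNA comparisons share the single control library. Each FPKM has deposited bounds, of a coverage that no source used here gives, and in 0 of the 28 genes did the interval of shRNA1 or of shRNA2 lie clear of the control interval. Intervals were clear in 0.923% of all tested genes with shRNA1 and in 0.32% with shRNA2.

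**Figure D1:**
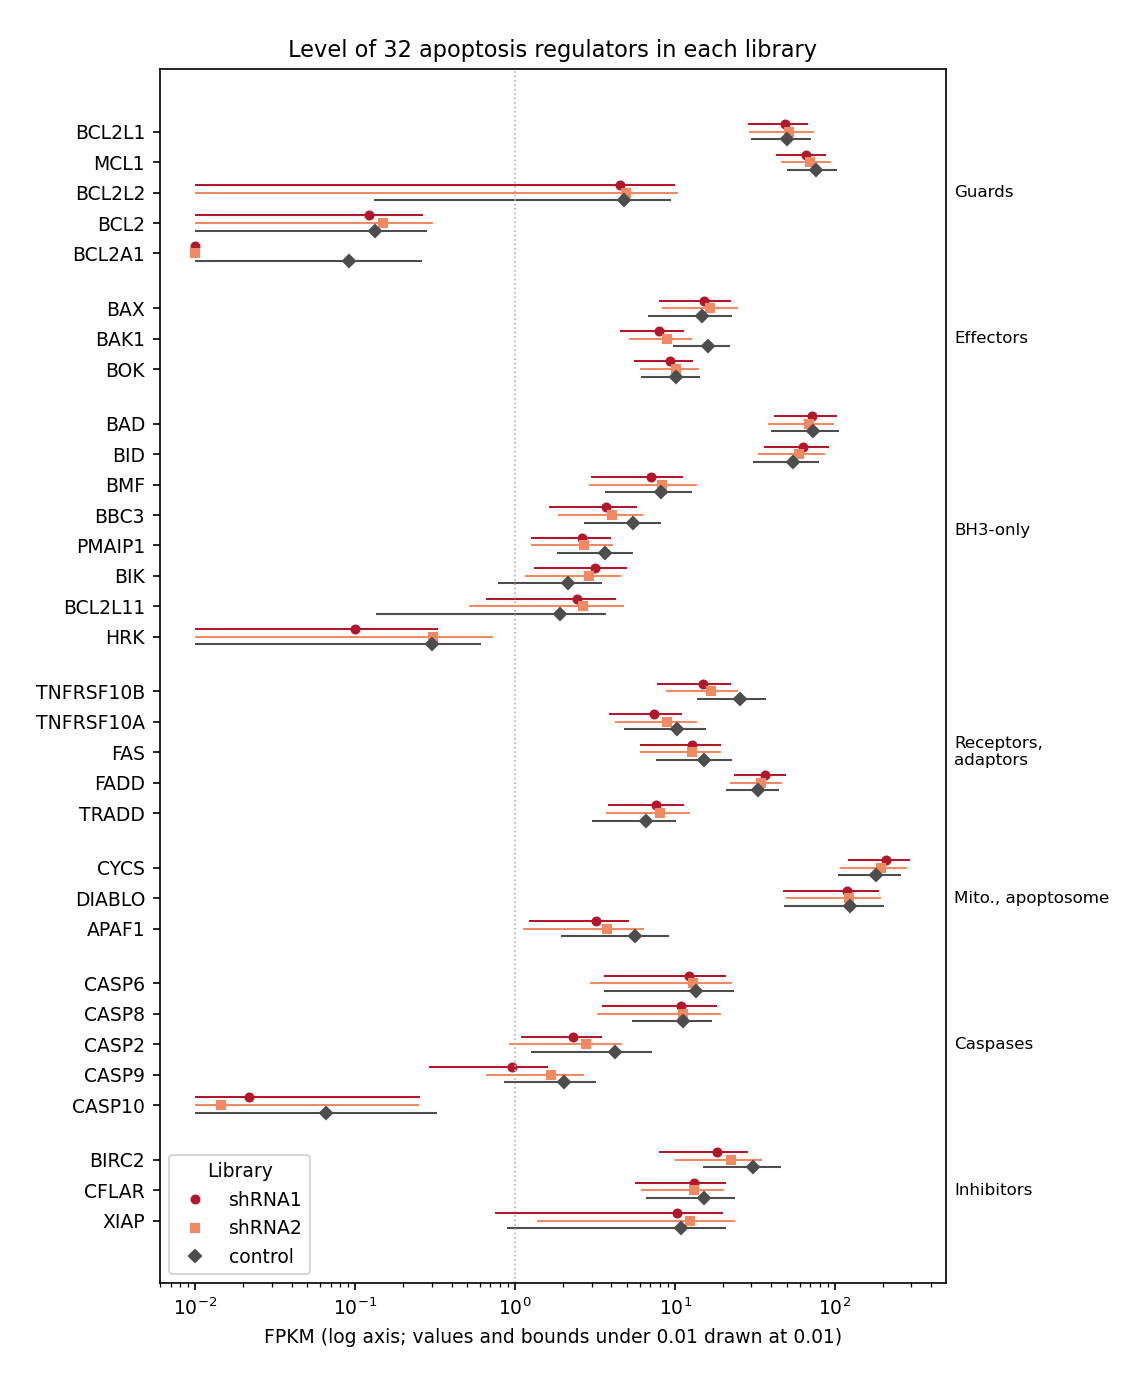
FPKM of the 32 regulators (rows, by role) in the shRNA1, shRNA2 and control libraries on a log axis; points are deposited values, lines the deposited intervals, values under 0.01 are drawn at 0.01, and the dotted line marks 1 FPKM. Levels run from CYCS at 208, 194 and 181 FPKM down to CASP10 and BCL2A1 near 0, and the 3 intervals of each tested gene overlap.

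Among the guards, which bind and silence effectors and BH3-only proteins, MCL1 and BCL2L1 held nearly all of the message. MCL1, a short-lived guard, was at 65.4 FPKM with shRNA1 and 70.0 FPKM with shRNA2, against 76.4 FPKM in the control. BCL2L1, whose main product is BCL-XL, was at 48.3 and 51.5 FPKM in the shRNA1 and shRNA2 libraries and at 50.3 FPKM in the control. Together this pair made up 96.1% of the summed guard FPKM with shRNA1, 96.0% with shRNA2 and 96.2% in the control. BCL2L2, the gene of BCL-w, was lower still at 4.53, 4.92 and 4.80 FPKM in shRNA1, shRNA2 and control. BCL2 itself, an estrogen-induced guard in many luminal tumours, was at 0.121 and 0.15 FPKM in the knockdown libraries and at 0.134 FPKM in the control. BCL2A1, a guard of blood cells, was listed at 0 with both shRNAs and at 0.0908 FPKM in the control.

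The guards differed little from the control. The median log2 difference of the 3 that were tested was -0.02, beside 0.00053 for all tested genes. MCL1 had the largest, a log2 difference of -0.17 (SE 0.09, limma adjusted p = 0.269 by Benjamini-Hochberg), and BCL2L1 the smallest at -0.01 (SE 0.09). The signs of BCL2L1 and BCL2L2 became positive when the libraries were scaled to the same 75th percentile. The intervals of BCL2L2 reach 0 in both knockdown libraries, and its exons overlap those of the read-through gene BCL2L2-PABPN1 on the same strand, so the division of reads between them is uncertain.

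The effectors, which form the pore in the mitochondrial membrane, diverged. BAK1 (ENSG00000030110, chr6:33572547-33580293 of GRCh38, minus strand) was at 7.95 FPKM with shRNA1 and 8.96 FPKM with shRNA2, against 15.9 FPKM in the control. Both knockdown values lay below the control value, 2.0-fold the shRNA1 level and 1.78-fold the shRNA2 level. BAX was at 15.1 and 16.4 FPKM in the shRNA1 and shRNA2 libraries, against 14.7 FPKM in the control. BOK, an effector that works apart from the others, was at 9.29, 10.1 and 10.2 FPKM in shRNA1, shRNA2 and control. As a result, the ratio of BAX to BAK1 was 1.90 with shRNA1 and 1.83 with shRNA2, against 0.924 in the control.

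BAK1 had the largest difference of all 28 regulators. Its log2 difference was -0.88 (SE 0.13), with a limma adjusted p of 0.0831 over all genes and of 0.00933 over protein-coding genes alone (Benjamini-Hochberg). The unadjusted limma p also differed, 0.00265 over all genes and 0.000276 over protein-coding genes alone, although the SE of BAK1 was higher there at 0.14. The gene set thus alters the variance model of limma and not only the adjustment. Over the alternatives the limma adjusted p of BAK1 ranged from 0.00933 to 0.230. The deposited intervals were 4.55 to 11.4 FPKM with shRNA1, 5.16 to 12.8 with shRNA2 and 9.73 to 22.1 in the control. BAX had a log2 difference of 0.09 (SE 0.11) and BOK of -0.07 (SE 0.12), and limma passed neither, with adjusted p of 0.593 and 0.722 (Benjamini-Hochberg). GGNBP1, which overlaps BAK1 on the opposite strand, was listed at 0 in every library, and BAK1 has 2 annotated pseudogenes. The difference between BAK1 and BAX was not itself tested.

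The promoter windows of BAK1 and BAX are printed because these effectors of like function had unlike values here. Each runs from 250 bases before to 50 bases after a RefSeq start in GRCh38.p14, BAK1 on the minus strand at chr6:33580227-33580526 and BAX on the plus strand at chr19:48954625-48954924. Capitals mark the GC box, GGGCGG or its reverse complement, the word bound by SP-family factors, found 2 times in each window.
BAK1: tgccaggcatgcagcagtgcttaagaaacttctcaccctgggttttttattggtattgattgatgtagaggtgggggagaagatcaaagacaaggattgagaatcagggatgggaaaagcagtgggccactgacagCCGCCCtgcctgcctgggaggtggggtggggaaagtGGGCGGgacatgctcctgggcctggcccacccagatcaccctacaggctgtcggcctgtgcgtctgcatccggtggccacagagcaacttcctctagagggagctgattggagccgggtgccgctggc
BAX: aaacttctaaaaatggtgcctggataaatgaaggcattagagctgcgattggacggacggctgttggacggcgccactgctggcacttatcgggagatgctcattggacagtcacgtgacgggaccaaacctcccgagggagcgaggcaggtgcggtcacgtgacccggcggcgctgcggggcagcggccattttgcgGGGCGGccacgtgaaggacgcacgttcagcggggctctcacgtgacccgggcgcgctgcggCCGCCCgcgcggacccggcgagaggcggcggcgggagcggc
The BAX window was 67.3% G and C and the BAK1 window 58.7%. The GC box was present in windows of 21 of the 25 regulators that have one in the RefSeq table (84.0%), beside 78.7% of tested coding genes and 48.3% of all genes with a window. The E2F words TTTCCCGC, TTTCGCGC, TTTGCCGC and TTTGGCGC, read on both strands, were in 0 of the 25, beside 6.85% of tested coding genes and 3.99% of all genes. A word match is a description of the letters and shows no binding.

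**Figure D2:**
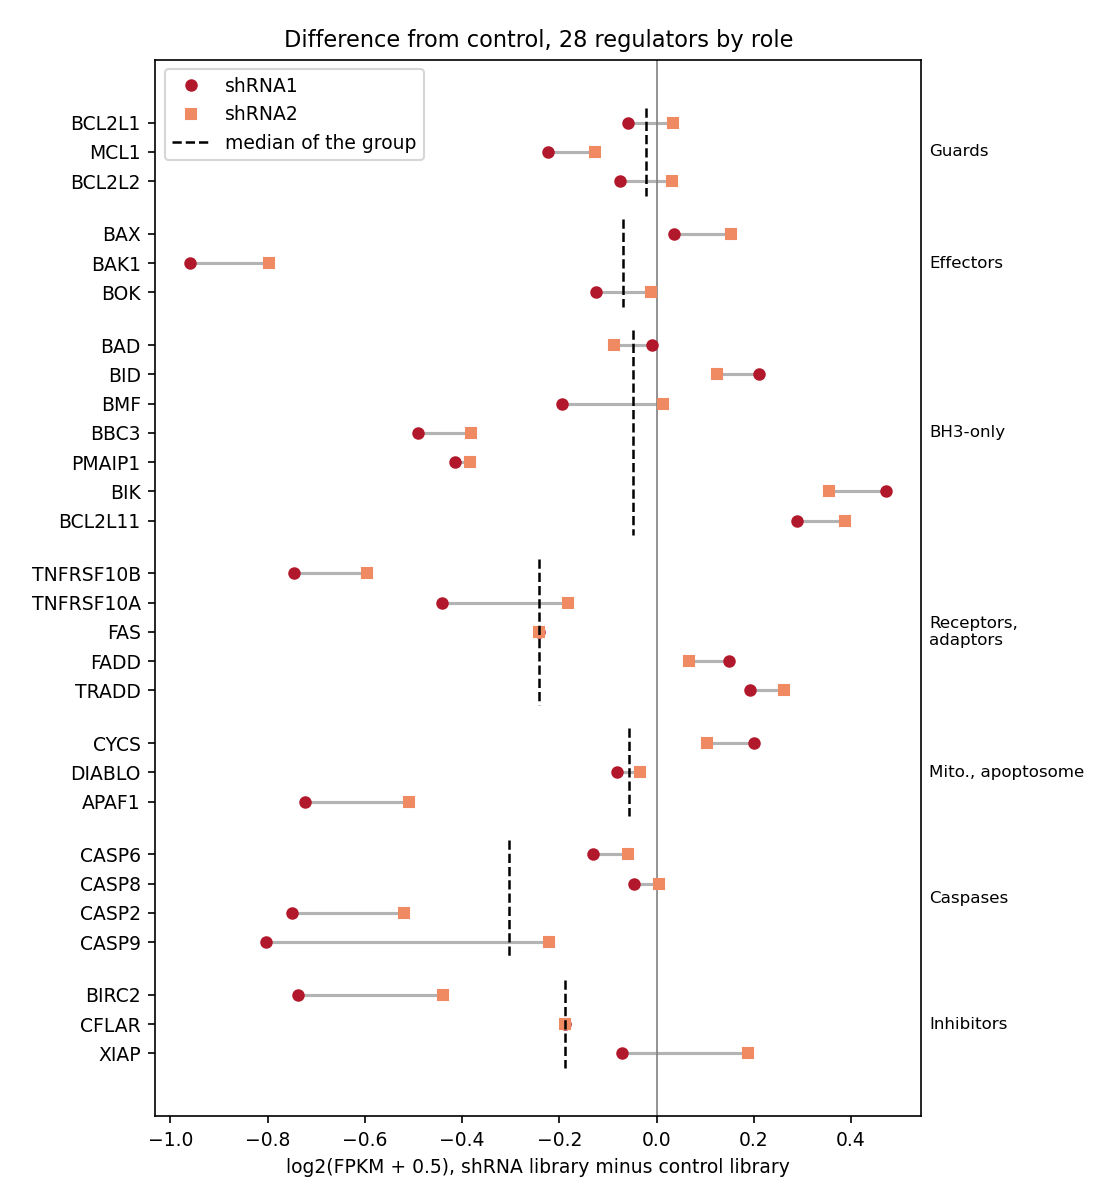
Difference in log2(FPKM + 0.5) of shRNA1 (circles) and shRNA2 (squares) from the control library for the 28 tested regulators, by role; the dashed line is the median of each role group. BAK1 lies farthest left at -0.96 and -0.80, while BIK lies farthest right at 0.47 with shRNA1.

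BH3-only genes, the stress sensors of the family, went both ways. BAD, which growth factor signalling holds inactive by phosphorylation, was at 72.2 and 68.5 FPKM with shRNA1 and shRNA2, against 72.7 FPKM in the control. BID, which caspase-8 cleaves to join the receptor route to mitochondria, was at 63.4 and 59.7 FPKM in the knockdown libraries and at 54.7 FPKM in the control. BAD and BID held 87.6% of the summed BH3-only FPKM with shRNA1, 86.0% with shRNA2 and 85.5% in the control. Of the 7 tested, 3 had a positive and 4 a negative mean difference, with a median of -0.05.

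The lowest differences in this group were those of BBC3 and PMAIP1. BBC3, the gene of PUMA, was at 3.72 and 4.05 FPKM with shRNA1 and shRNA2, against 5.43 FPKM in the control. PMAIP1, the gene of NOXA, which binds MCL1, was at 2.61 and 2.67 FPKM in the knockdown libraries, against 3.64 FPKM in the control. Each was below the control in both knockdown libraries, with log2 differences of -0.44 (SE 0.14) for BBC3 and -0.40 (SE 0.15) for PMAIP1. Limma passed neither, with Benjamini-Hochberg adjusted p over all genes of 0.155 for BBC3 and 0.187 for PMAIP1. Over protein-coding genes alone the limma adjusted p were 0.102 and 0.151.

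BIK and BCL2L11 had the highest differences of the group. BIK, which acts at the endoplasmic reticulum, was at 3.17 FPKM with shRNA1 and 2.88 FPKM with shRNA2, against 2.14 FPKM in the control. BCL2L11, the gene of BIM, a potent activator of effectors, was at 2.45 and 2.66 FPKM with shRNA1 and shRNA2 and at 1.91 FPKM in the control. BIK had a log2 difference of 0.41 (SE 0.17) and BCL2L11 of 0.34 (SE 0.17), and neither passed in limma (Benjamini-Hochberg adjusted p of 0.197 and 0.263). BMF, a sensor released from the cytoskeleton, was at 7.09, 8.25 and 8.18 FPKM in shRNA1, shRNA2 and control. HRK, a neuronal sensor, stayed under the filter at 0.0998 and 0.307 FPKM in knockdown and 0.300 FPKM in the control.

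Summed over the group, guards stood at 118 FPKM with shRNA1 and 127 FPKM with shRNA2, against 132 FPKM in the control. BH3-only genes summed to 155 and 149 FPKM in the shRNA1 and shRNA2 libraries and to 149 FPKM in the control. The ratio of guards to BH3-only genes was accordingly 0.765 with shRNA1, 0.849 with shRNA2 and 0.884 in the control. These sums are ruled by MCL1, BCL2L1, BAD and BID. The gap between the shRNA libraries in this ratio was wider than that between shRNA2 and control. The effectors summed to 32.3 and 35.5 FPKM with shRNA1 and shRNA2, against 40.8 FPKM in the control, and BAK1 accounts for most of that gap.

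**Figure D3:**
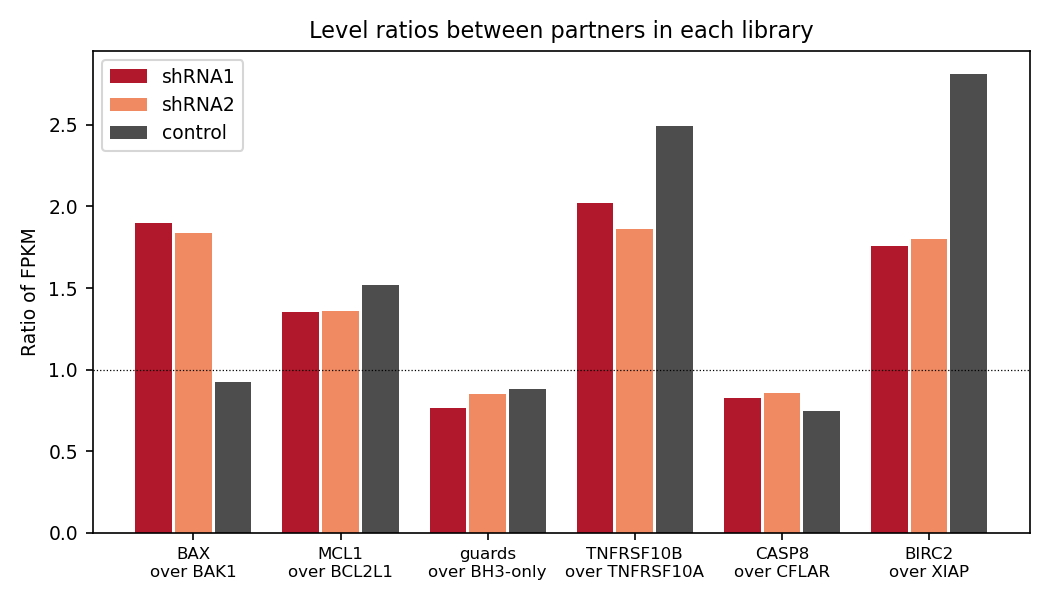
Ratios of FPKM between functional partners in each library (bars, shRNA1, shRNA2 and control from left to right; the dotted line marks 1). BAX over BAK1 is 1.90 and 1.83 in the knockdown libraries and 0.924 in the control, and BIRC2 over XIAP is 1.76 and 1.80 against 2.81.

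In the receptor route, TNFRSF10B had the lowest difference of the 3 receptors and 2 adaptors among the regulators. It alone of these passed in an alternative limma fit. It did so over protein-coding genes alone, and over all genes with the robust option (Benjamini-Hochberg adjusted p of 0.0405). TNFRSF10B (chr8:23020133-23069179, minus strand), which encodes the TRAIL receptor DR5, was at 15.0 FPKM with shRNA1 and 16.7 FPKM with shRNA2, against 25.5 FPKM in the control. TNFRSF10A, the gene of the receptor DR4, was at 7.4 and 8.95 FPKM in the shRNA1 and shRNA2 libraries and at 10.2 FPKM in the control. FAS, the receptor of Fas ligand, was at 12.7 FPKM with shRNA1 and 12.7 FPKM with shRNA2, against 15.1 FPKM in the control. FAS, TNFRSF10A and TNFRSF10B thus had their highest value in the control library. TNFRSF10B had a log2 difference of -0.67 (SE 0.11), with a Benjamini-Hochberg adjusted p in limma of 0.0853 over all genes and 0.0132 over protein-coding genes alone, and a range of 0.0132 to 0.238 over the alternatives.

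TNFRSF10A and FAS had log2 differences of -0.31 (SE 0.16) and -0.24 (SE 0.10) and did not pass in limma (Benjamini-Hochberg adjusted p of 0.270 and 0.208). TNFRSF10B exceeded TNFRSF10A in each library, 2.02-fold with shRNA1, 1.86-fold with shRNA2 and 2.49-fold in the control. RHOBTB2, which overlaps TNFRSF10B on the opposite strand, was at 1.84, 1.44 and 2.19 FPKM in shRNA1, shRNA2 and control. FADD, the adaptor that brings caspase-8 to the receptors, was at 36.5 and 34.4 FPKM in knockdown, against 32.9 FPKM in the control. TRADD, the adaptor of TNF receptor signalling, was at 7.6 and 8.0 FPKM with shRNA1 and shRNA2, against 6.59 FPKM in the control. The median log2 difference over the receptors and adaptors was -0.24 with shRNA1 and -0.18 with shRNA2.

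Mitochondrial factors were the most abundant regulators, and the apoptosome scaffold one of the scarcer ones. CYCS, the gene of cytochrome c, was at 208 FPKM with shRNA1 and 194 FPKM with shRNA2, against 181 FPKM in the control. It has 40 annotated pseudogenes, so its share of reads is uncertain. DIABLO, the gene of SMAC, which relieves caspases of IAP proteins, was at 118 and 122 FPKM in the knockdown libraries and at 125 FPKM in the control. Its exons overlap AC048338.1 and another gene entry named DIABLO on the same strand, so its share of reads is uncertain as well. B3GNT4, which overlaps DIABLO on the opposite strand, was at 1.26, 2.16 and 5.24 FPKM in shRNA1, shRNA2 and control. APAF1 (chr12:98645141-98735433, plus strand), the scaffold, was at 3.18 FPKM with shRNA1 and 3.77 FPKM with shRNA2, against 5.58 FPKM in the control. Both knockdown values of APAF1 were below its control value.

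APAF1 had a log2 difference of -0.62 (SE 0.17) and a limma adjusted p of 0.121 over all genes (Benjamini-Hochberg; 0.0496 to 0.280 over the alternatives). The 0.0496 came from protein-coding genes alone. ANKS1B, which overlaps APAF1 on the opposite strand, was at 5.85 and 7.98 FPKM with shRNA1 and shRNA2, against 4.19 FPKM in the control. If reads were counted without strand, those in the overlap cannot be assigned. CYCS exceeded APAF1 65.4-fold with shRNA1 and 51.6-fold with shRNA2, against 32.4-fold in the control. CYCS and DIABLO did not pass in limma, with log2 differences of 0.15 (SE 0.09) and -0.06 (SE 0.08).

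**Figure D4:**
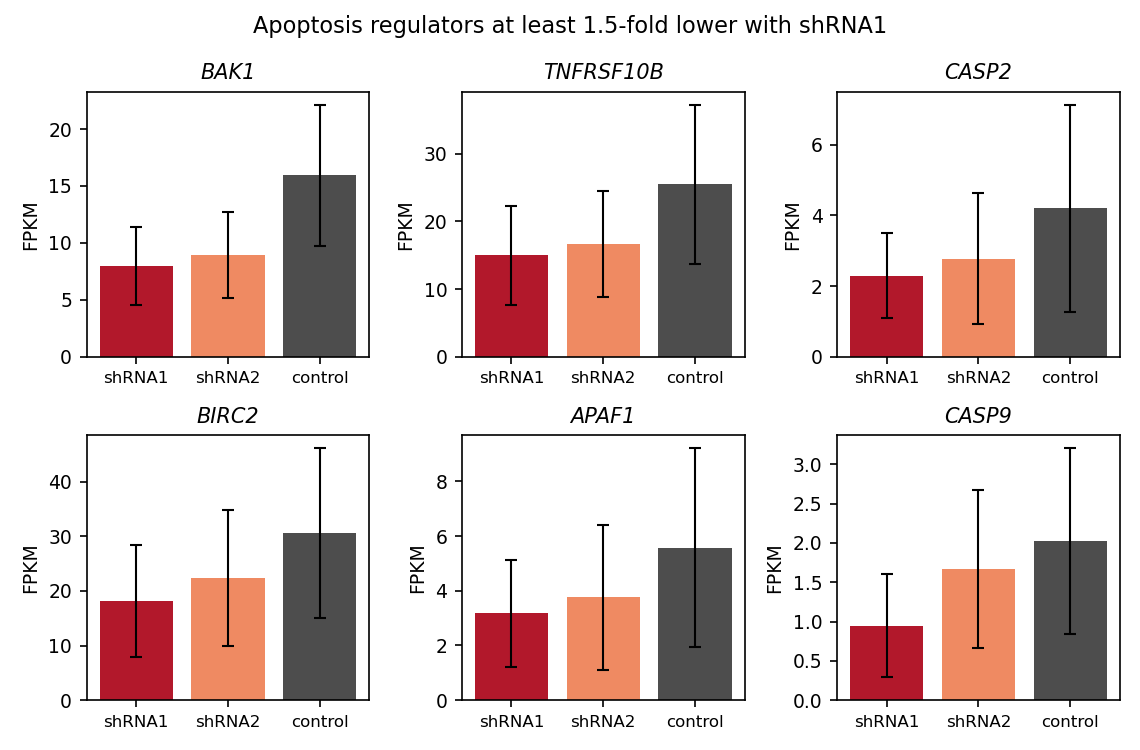
FPKM of the 6 regulators at least 1.5-fold lower with shRNA1 than in the control (bars, shRNA1, shRNA2 and control from left to right; error bars are the deposited intervals). BAK1 shows the clearest gap at 7.95 and 8.96 against 15.9 FPKM, and in each panel the intervals overlap.

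Among caspases, the initiators differed from one another. CASP2, an initiator of the PIDDosome complex, was at 2.29 FPKM with shRNA1 and 2.78 FPKM with shRNA2, against 4.20 FPKM in the control. CASP9, the apoptosome initiator, was at 0.949 FPKM with shRNA1 and 1.67 FPKM with shRNA2, against 2.03 FPKM in the control. CASP8, the initiator of the receptor route, was at 10.9 and 11.3 FPKM in the shRNA1 and shRNA2 libraries and at 11.2 FPKM in the control. CASP10, its close relative, was listed at 0.0215 and 0.0146 FPKM in knockdown and 0.0660 FPKM in the control, under the filter. CASP6, an executioner, was at 12.2 and 12.9 FPKM with shRNA1 and shRNA2 and at 13.4 FPKM in the control.

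CASP2 had a log2 difference of -0.63 (SE 0.18) and missed the threshold in limma both over all genes and over protein-coding genes alone (Benjamini-Hochberg adjusted p of 0.129 and 0.0572). For CASP9 the difference was -0.80 with shRNA1 and -0.22 with shRNA2, the widest gap between the shRNAs of any regulator tested (SE 0.32, limma adjusted p of 0.339). CASP8 and CASP6 had log2 differences of -0.02 (SE 0.11) and -0.09 (SE 0.11), and that of CASP8 turned positive with the 75th percentile scaling.

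Of the inhibitors, BIRC2 and CFLAR were lower in both knockdown libraries, and BIRC2 had the larger difference. BIRC2 (chr11:102347211-102378670, plus strand), which encodes the ubiquitin ligase cIAP1, was at 18.1 FPKM with shRNA1 and 22.4 FPKM with shRNA2, against 30.6 FPKM in the control. CFLAR, the gene of FLIP, a decoy of caspase-8, was at 13.2 FPKM with shRNA1 and 13.2 FPKM with shRNA2, against 15.1 FPKM in the control. XIAP, which binds caspases directly, was at 10.3 and 12.5 FPKM in the shRNA1 and shRNA2 libraries, one on each side of the 10.9 FPKM of the control. BIRC2 had a log2 difference of -0.59 (SE 0.16), with a limma adjusted p of 0.120 over all genes and 0.0307 over protein-coding genes alone (Benjamini-Hochberg; 0.0307 to 0.324 over the alternatives).

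CFLAR did not pass in limma with a log2 difference of -0.19 (SE 0.10, Benjamini-Hochberg adjusted p of 0.282). XIAP did not pass either at 0.06 (SE 0.16), a value that became -0.01 once totals were equalised. BIRC2 exceeded XIAP 1.76-fold with shRNA1 and 1.80-fold with shRNA2, against 2.81-fold in the control. The ratio of CASP8 to its decoy CFLAR was 0.823 with shRNA1, 0.854 with shRNA2 and 0.744 in the control. BIRC3, the gene of cIAP2 and the neighbour of BIRC2 on chromosome 11, was at 2.31 and 3.23 FPKM with shRNA1 and shRNA2, against 7.82 FPKM in the control. The BIRC3 interval of shRNA1 lay clear of the control interval, and that of shRNA2 did not.

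The BIRC2 promoter window is printed because BIRC2 alone among the 25 regulators with a window held the cAMP response element, the word TGACGTCA that CREB-family factors bind, in capitals. On either strand it was found in 4.0% of the 25 regulators, 3.91% of tested coding genes and 2.25% of all genes with a window. The regulators were thus not set apart by it. The window shown, 1 of 2 listed for the gene, lies at chr11:102346964-102347263 on the plus strand of GRCh38.p14.
BIRC2: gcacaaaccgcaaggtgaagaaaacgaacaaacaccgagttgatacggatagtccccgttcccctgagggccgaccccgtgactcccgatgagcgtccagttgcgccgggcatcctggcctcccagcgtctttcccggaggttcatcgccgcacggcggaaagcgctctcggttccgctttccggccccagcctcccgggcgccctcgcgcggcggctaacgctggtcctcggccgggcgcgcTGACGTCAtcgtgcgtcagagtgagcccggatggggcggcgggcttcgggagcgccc

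As a whole, 20 of the 28 tested regulators had a negative and 8 a positive mean difference (71.4% and 28.6%), beside 6551 lower and 6561 higher of all tested genes. The regulators are protein-coding, and of the 11546 tested coding genes 5983 were lower and 5563 higher. The median log2 difference of the regulators was -0.13 with shRNA1 and -0.05 with shRNA2, with the mean of the shRNAs at -0.08. Beside these stood -0.00064 and 0 for all tested genes, and -0.02 and -0.01 for coding genes, with shRNA1 and shRNA2. Below the control were 21 of the 28 with shRNA1 and 16 with shRNA2, beside 6567 and 6529 of 13112 genes. By role, the medians ran from -0.30 for caspases, -0.24 for receptors and adaptors and -0.19 for inhibitors to -0.07 for effectors, -0.06 for mitochondrial factors and apoptosome, -0.05 for BH3-only genes and -0.02 for guards. Guards, effectors, mitochondrial factors and inhibitors had 3 tested genes each, so each of these medians is the value of 1 gene. The effector median is that of BOK, with BAK1 at -0.88. The mitochondrial median is that of DIABLO, with APAF1 at -0.62. The order by role depended on the library. With shRNA1 alone the caspase median was -0.44, and with shRNA2 alone it was -0.14, above the -0.19 of inhibitors and the -0.18 of receptors and adaptors, while the guard median was -0.08 with shRNA1 and 0.03 with shRNA2. Regulators that drive and regulators that block apoptosis both figured among those that passed over protein-coding genes, with BAK1, TNFRSF10B and APAF1 among the drivers and BIRC2 among the blockers. The shRNA libraries differed from each other by a median of 0.10 on the log2 scale over the 28 regulators and 0.12 over all tested genes. The difference from control was larger with shRNA1 than with shRNA2 in 23 of the 28 regulators and in 8737 of the 13112 genes.

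**Figure D5:**
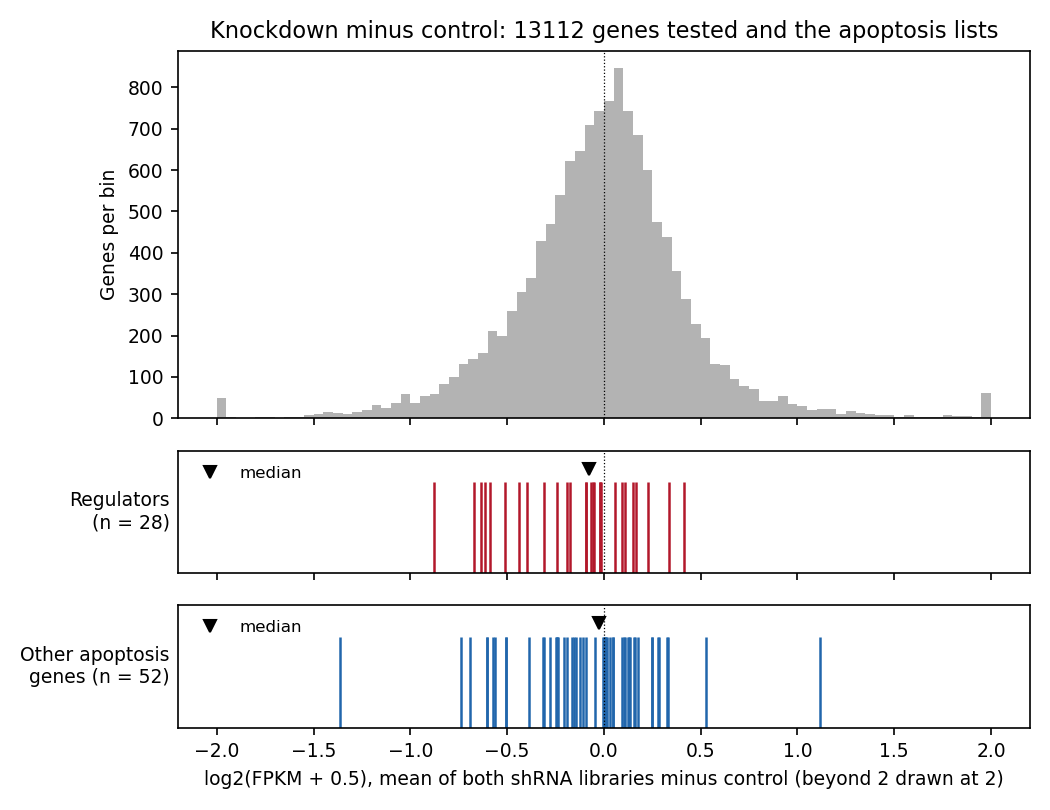
Histogram of the log2 difference, knockdown minus control, over the 13112 tested genes, with the 28 regulators (red lines) and 52 other apoptosis genes (blue lines) on the same axis; triangles are list medians, and genes beyond 2 are drawn at 2. The regulators spread from -0.88 to 0.41, around a median of -0.08, and the other genes around a median of -0.02.

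Other genes of the pathway, 62 by list, 61 found and 52 tested, showed a median log2 difference of -0.02, with 25 higher and 27 lower. Limma over all genes called 0 of the 52 (0.351% of all genes), with 15 at an unadjusted p under 0.05 (29.7% of all genes). Over protein-coding genes alone 3 of the 52 passed as higher (7.11% of coding genes) and 8 as lower (11.3% of coding genes), so these counts do not set the list apart. BIRC3 had the lowest difference at -1.36 (SE 0.23), with a limma adjusted p of 0.0844 over all genes and 0.00917 over protein-coding genes alone (Benjamini-Hochberg). BCL2L12, an atypical family relative, was at 7.50 and 9.93 FPKM with shRNA1 and shRNA2, against 14.7 FPKM in the control. TNFSF10, the gene of the death ligand TRAIL, was at 22.9 and 28.3 FPKM in knockdown, against 41.3 FPKM in the control.

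In the other direction, PDCD4, an inhibitor of translation, was at 398 FPKM with shRNA1 and 347 FPKM with shRNA2, against 171 FPKM in the control, a log2 difference of 1.12 (SE 0.12). BAG1, a co-chaperone first found as a BCL2 partner, was at 50.5 and 47.3 FPKM with shRNA1 and shRNA2 and at 33.7 FPKM in the control. TMBIM4, a Golgi membrane protein that protects from cell death, was at 139 and 132 FPKM in knockdown, against 108 FPKM in the control. The 5 genes BCL2L12, TNFSF10, PDCD4, BAG1 and TMBIM4 passed in limma over protein-coding genes alone, with Benjamini-Hochberg adjusted p from 0.00325 for PDCD4 to 0.0463 for TMBIM4. Over all genes they did not pass (limma adjusted p from 0.0816 to 0.120).

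The limits are those of 3 libraries of bulk RNA. Fewer cells of a kind and less RNA per cell cannot be told apart, any state of the single control library counts as part of the difference, and gene totals do not separate splice forms, which in BCL2L1, MCL1, CASP2 and CASP9 can act in opposite ways.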

How the data were processed

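RNA was sequenced from 3 T47D lines, 2 with hairpins against ERINA and 1 control. The authors deposited FPKM per gene and library, with a lower and an upper bound of each FPKM and a status, per the file headers. The submitters' processing notes name STAR, RSEM and GRCh38 without version or role. The layout of bounds and status is not that of a standard RSEM gene table, so the program behind the FPKM and what the bounds cover are not known here. Not given in the sources used here are the annotation, the library preparation, the scaling between libraries, strand handling and the confidence level of the bounds. Identical nonzero FPKM occurred in 0 genes of any library pair.

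The groups follow the genotype label. No source says the lines came from separate infections, so p-values measure no spread beyond that between the shRNA1 and shRNA2 libraries. That leaves 1 residual degree of freedom, and the control is assumed to vary alike. In eBayes each gene's variance is pulled toward a trend over all tested genes, so an SE is not that gene's spread alone. CFLAR, at a log2 difference of -0.19 with both shRNAs, had an SE of 0.10. The fit over protein-coding genes alone has its own trend, so its SE and unadjusted p differ from those over all genes. Each SE given is from the fit over all genes unless stated. FPKM is no count, so no count model was used. Genes averaging 1 FPKM or more over the libraries were tested on log2(FPKM + 0.5) with limma 3.58.1 in R 4.3.3 (lmFit, eBayes with trend), Benjamini-Hochberg adjusted over all tested genes at 0.05. Printed folds of FPKM carry no pseudocount. Tables and plots used pandas 2.3.3, matplotlib 3.10.9 and numpy 2.4.6 under Python 3.11.15. GENCODE release 29 gave types and coordinates for 57435 of 58039 genes (99.0%) and all 32 regulators. The authors' annotation may differ. Depth was estimated from the 400 lowest nonzero values among genes with 1 annotated transcript of at least 1000 nt, each taken as 1 fragment. It would be a scaled size if the deposited values were scaled.

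ERINA was found as LINC00992 through its RefSeq synonym. Exons overlap a gene on the opposite strand in 18 of the 32 regulators and on the same strand in 5. The distance from FPKM to either bound in the control ranged from 34.4% of the FPKM for MCL1 to 97.3% for BCL2L2. Promoter windows came from RefSeq (GRCh38.p14), which matched 25 of the 32. Regulators and lists were chosen with earlier results of these data known. All 32 regulators are named. Of the other pathway genes, the 3 lowest and 3 highest differences on the same side of the control in both libraries are named. TP63 was named after its values were seen. Some genes of the fixed lists are not reported here by name. Alternatives changed pseudocount, filter, variance model, scaling, gene set and the libraries used.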

Additional observations from a re-analysis of the deposited data

How the results depend on the processing

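No paired analysis was possible because the single control library serves both shRNA libraries. Over the 9 alternative settings the sign changed in 4 of the 28 tested regulators (BCL2L1, BCL2L2, CASP8 and XIAP, none past a threshold). Scaling to the same total put the all-gene median at -0.12 for shRNA1 and at -0.03 for shRNA2. Genes called over all genes numbered 11 higher and 35 lower, against 430 and 595 with the robust option, 821 and 1299 with protein-coding genes only, 65 and 110 with the same total, 0 and 0 with no filter (limma, where the fewer calls come with more genes tested), and 6 higher without the trend. Regulators called lower numbered 0, against 2 with the robust option (BAK1 and TNFRSF10B) and 4 with protein-coding genes only.

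Medians of log2 differences that moved by more than 1 SD between the shRNAs were as follows. With the same total they were -0.13 for BH3-only genes, -0.32 for receptors and adaptors, -0.13 for mitochondrial factors, -0.26 for inhibitors and -0.15 for all regulators. With the same 75th percentile they were -0.0088 for BH3-only genes, -0.0173 for mitochondrial factors and -0.15 for inhibitors. With no filter BH3-only genes had -0.0695. At a mean FPKM of at least 5, mitochondrial factors had 0.0475 and caspases -0.0578, over fewer genes. Inhibitors had -0.19 with a pseudocount of 0.1 and -0.18 with 1. The inhibitor median is that of CFLAR, at -0.19 with both shRNAs, so its SD is very small and slight moves exceed it. Leaving out an shRNA library gave -0.0101 to 0.0125 for BH3-only genes and -0.24 to -0.18 for receptors and adaptors, -0.44 to -0.14 for caspases, -0.08 to 0.03 for guards, -0.12 to -0.01 for effectors, -0.08 to -0.03 for mitochondrial factors and -0.13 to -0.05 for all regulators. These values are given whether or not they moved that far, and leave no test. Other causes were not tested. Low levels limit CASP9, APAF1, CASP2, BBC3, PMAIP1, BIK, BCL2L11, BCL2L2 and the 4 regulators under the filter.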
